A study of Mus musculus with 15 samples.

Results

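The genes described here are 10 members of the Bcl2 family of survival and death genes in the mouse: Bcl2, Mcl1 and Bcl2l1 (Bcl-xL), which protect cells, Bcl2l11 (Bim), Pmaip1 (Noxa), Bmf, Bbc3 (Puma) and Bid, which belong to the BH3-only group, and the effectors Bak1 (Bak) and Bax. Members were taken by name, with every probe set that the array's annotation assigns to that symbol alone. This gave 30 probe sets for 9 of the 10 genes, out of 18193 genes measured on 15 arrays; Bax is not analysed here.

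Members of the family meet at the outer membrane of the mitochondrion. BH3-only proteins are produced or released under stress or loss of growth factors, occupy the binding groove of the protective proteins or act on the effectors directly, and the freed effectors open the membrane so that cytochrome c leaves and caspases are activated. Haematopoietic cells depend on protective members that differ by cell type and stage, and Bim, Noxa and Puma are known regulators of the lifespan of lymphoid and myeloid cells.

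All samples came from C57Bl/6 mice at steady state, and the sorted progenitors, the Spl sample included, are titled WT1 or WT2. The labels do not say whether this number marks an animal or a sort day shared across groups. Bone marrow pre-cDC, precursors of classical dendritic cells, were sorted as CD117 low, CD135+ and CD11c+. Common dendritic cell progenitors (CDP) were sorted as CD117 intermediate, CD135+ and CD11c-, granulocyte-macrophage progenitors (GMP) as CD117 high, CD16/32+ and CD135-, and common myeloid progenitors (CMP) as CD117 high, CD135+ and CD16/32-. Each of these 4 groups had 2 arrays. A further array held a pre-cDC sample titled Spl, whose label nevertheless gives the cell type as bone marrow progenitor. Whole bone marrow was grown for 7 days with 20 ng/ml GM-CSF, a cytokine that yields dendritic cells and macrophages, or with 20 ng/ml M-CSF, the macrophage growth factor. From the GM-CSF culture came 1 array of CD11c+ non-adherent cells and 1 of adherent cells, and from the M-CSF culture 1 array of adherent cells. Bone marrow monocytes, enriched by removing cells with markers of other lineages, gave 1 array each after 0, 24 and 48 h with 20 ng/ml GM-CSF.

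The array sets were on different scales, with medians over all probe sets of 77.7 to 80.5 for monocytes, 74.2 for the Spl array, 24.1 to 25.7 for cultures and 15.95 to 17.44 for progenitors from bone marrow, so values were compared within each set. The genes of the sort markers followed the gates: Kit read 36.3 and 36.8 in pre-cDC, 335 and 368 in CDP and 905 to 1229 in GMP and CMP, and Itgax, which encodes CD11c, read 1537 and 1563 in pre-cDC against 124 and 153 in CDP. On the Spl array Kit read 1105, although the gate for pre-cDC was CD117 low. Whether the arrays of a group represent separate animals is not stated in the labels, and p-values then cover no more than the spread between these samples. In bulk samples, fewer cells of a type and less RNA per cell cannot be told apart.

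RefSeq promoter sequences on GRCm38.p6, running from 250 bases before to 50 after a transcription start site, were read for 15 start sites of 8 members. They were searched on both strands for 8 motifs: the STAT-type inverted repeat TTCNNNGAA, the PU.1-type Ets motif GAGGAAGT, the CRE TGACGTCA, the E-box CACGTG, the forkhead motif TGTTTAC, the motif CCAAT, the GC box GGGCGG and the TATA box TATAAA. No searched motif contains another. The promoter of Pmaip1 was left out of the search. Among the 8 members searched, the promoters of Bcl2, Mcl1 and Bmf are shown because these genes had the largest log2 differences between pre-cDC and CDP, and 1 of the 2 start sites of Bcl2l11 because the gene stood apart on the Spl array. Motif matches are in capitals, and each sequence reads 5′ to 3′ on the strand of its gene.
Bcl2, chr1:106714241-106714540 (minus strand): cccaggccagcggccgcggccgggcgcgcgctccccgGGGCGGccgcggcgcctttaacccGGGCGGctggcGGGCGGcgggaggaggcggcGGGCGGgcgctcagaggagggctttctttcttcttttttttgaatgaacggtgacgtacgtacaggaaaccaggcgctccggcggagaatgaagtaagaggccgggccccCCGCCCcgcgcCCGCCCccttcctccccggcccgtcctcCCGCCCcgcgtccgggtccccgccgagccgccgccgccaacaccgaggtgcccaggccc
Mcl1, chr3:95658471-95658770 (plus strand): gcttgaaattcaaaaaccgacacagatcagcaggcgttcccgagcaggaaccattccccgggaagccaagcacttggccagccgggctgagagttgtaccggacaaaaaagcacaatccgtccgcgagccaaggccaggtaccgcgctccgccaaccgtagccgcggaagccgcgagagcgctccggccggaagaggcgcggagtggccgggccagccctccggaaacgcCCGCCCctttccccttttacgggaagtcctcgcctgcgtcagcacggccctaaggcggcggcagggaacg
Bmf, chr2:118549637-118549936 (minus strand): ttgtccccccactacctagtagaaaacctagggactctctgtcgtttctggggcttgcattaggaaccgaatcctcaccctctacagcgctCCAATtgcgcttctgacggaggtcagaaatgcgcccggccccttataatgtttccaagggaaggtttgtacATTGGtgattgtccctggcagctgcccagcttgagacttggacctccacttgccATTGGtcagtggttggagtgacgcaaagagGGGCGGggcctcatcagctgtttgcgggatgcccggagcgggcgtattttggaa
Bcl2l11, chr2:128125788-128126087 (plus strand): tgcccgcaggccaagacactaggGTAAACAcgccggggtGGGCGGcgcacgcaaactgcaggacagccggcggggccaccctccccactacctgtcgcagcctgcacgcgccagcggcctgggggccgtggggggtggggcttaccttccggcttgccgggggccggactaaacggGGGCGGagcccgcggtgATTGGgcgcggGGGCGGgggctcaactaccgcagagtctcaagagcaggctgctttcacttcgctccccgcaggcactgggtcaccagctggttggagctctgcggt

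With the start site as position 0, the Bcl2 promoter held 7 GC boxes and none of the 7 other motifs, and the Mcl1 promoter held 1 GC box at position -20. The most upstream of the 3 Bmf start sites had 3 CCAAT boxes and 1 GC box. The Bcl2l11 start site shown held a forkhead match at -227 beside 3 GC boxes and 1 CCAAT box, and the other start site of the gene held 3 GC boxes, 2 CCAAT boxes and no forkhead match. GC boxes were in 9 of the 15 member promoters and in 35.7% of 32851 mouse promoters, CCAAT in 5 of 15 and 37.4%, forkhead matches in 2 of 15 and 3.65%, and the E-box and the Ets motif in 1 of 15 each, against 7.15% and 3.2%. The STAT-type repeat, the CRE and the TATA box, held by 8.3%, 1.79% and 13.6% of mouse promoters, were in 0 of 15. The 15 promoters are not all separate, since a member has up to 3 start sites. The Bbc3 sequences starting at 16310011 and 16310181 overlap and share GC boxes. A match describes letters and is not a measured binding site.

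Among the bone marrow progenitors, the protective genes Bcl2 and Mcl1 moved in opposite directions at the pre-cDC stage. Bcl2 fell to a mean of 556 in pre-cDC, against 2254 in CDP, a ratio of 0.247. Mcl1 rose to 4346 in pre-cDC, against 2151 in CDP, a ratio of 2.02. The BH3-only genes Pmaip1 and Bmf rose at the same stage, with ratios of 9.44 and 6.92, Bbc3 rose 2.19-fold, and Bid fell to a ratio of 0.494. For Bcl2l11, Bcl2l1 and Bak1 the difference between pre-cDC and CDP did not pass the test. Differences were tested on log2(intensity + 32) in 1 limma fit over the 8 arrays, adjusted by Benjamini-Hochberg for 18193 genes and called below 0.05; the added 32 makes the log2 difference of a dim gene smaller than its ratio.

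**Figure D1:**
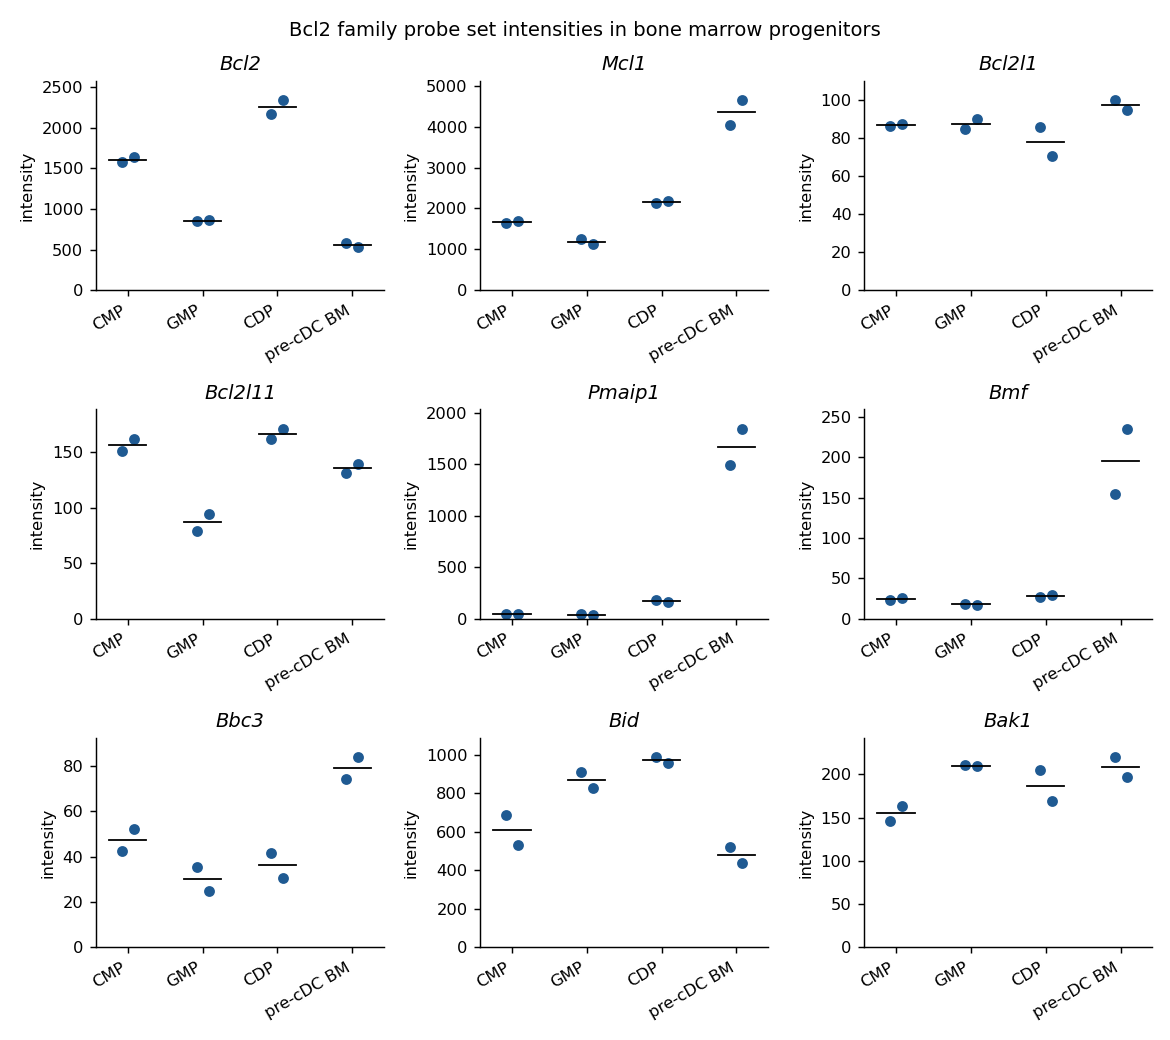
Intensity (linear axis from 0) of the highest probe set of each of the 9 genes in the 4 bone marrow progenitor groups. Points are arrays, 2 per group, and bars are means. Pmaip1, Bmf and Mcl1 were highest in both pre-cDC arrays, and Bcl2 was highest in both CDP arrays.

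Bcl2, the founding protective member, read 1573 and 1637 in CMP, 851 and 859.9 in GMP, 2167 and 2340.4 in CDP and 577 and 536 in pre-cDC. The 4 groups did not overlap, with CDP highest and pre-cDC lowest, and each neighbour in that order differed by the test. The log2 difference of pre-cDC against CDP was -1.96 (SE 0.085, adjusted p = 2.9e-09), that of CDP against GMP 1.36 (adjusted p = 1.0e-07), that of CDP against CMP 0.48 (adjusted p = 0.0019) and that of GMP against CMP -0.88 (adjusted p = 1.1e-05). All 5 Bcl2 probe sets were called in these 4 comparisons, in the same directions, with log2 differences of pre-cDC against CDP between -2.60 and -1.55. The order of pre-cDC and GMP depended on the probe set. The highest one was lower in pre-cDC by the test (-0.59, adjusted p = 6.2e-05), 3 others were higher, by up to 1.42, and 1 was not called. Against CMP, 3 of the 5 were lower in pre-cDC and 2 were not called, at log2 differences of -0.55 and -0.23.

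Mcl1, a protective protein with a short half-life, read 1648 and 1696 in CMP, 1244 and 1129 in GMP, 2124 and 2178 in CDP and 4044 and 4649 in pre-cDC. No groups overlapped, and the order was GMP, CMP, CDP and pre-cDC from low to high. The log2 difference was 1.0 for pre-cDC against CDP (SE 0.085, adjusted p = 1.1e-06), 1.84 for pre-cDC against GMP (adjusted p = 1.3e-09), 0.84 for CDP against GMP (adjusted p = 8.3e-06) and -0.49 for GMP against CMP (adjusted p = 0.0013). All 6 Mcl1 probe sets rose in pre-cDC against CDP, by 1.0 to 1.65, and in CDP against GMP. The difference of 0.36 between CDP and CMP (adjusted p = 0.012) was called in all 6 probe sets, but the call was lost after quantile normalization (adjusted p = 0.062) and without CMP replicate 1 (adjusted p = 0.093), CMP replicate 2 (0.059) or CDP replicate 2 (0.068).

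Bcl2l1, the third protective member and a survival gene of late erythroid cells, read 86.3 and 87.5 in CMP, 84.7 and 90.1 in GMP, 85.7 and 70.4 in CDP and 100.1 and 95.0 in pre-cDC. The values lay close together, and none of the 4 probe sets was called in any of the 6 comparisons. Only 1 of the 4 exceeded the median of all probe sets in a progenitor group, so the dim ones say little about the gene. The largest difference, 0.24 for pre-cDC against CDP, had an adjusted p of 0.11, which became 0.015 after quantile normalization. The sum over 8 of 10 erythroid markers was 2263 and 2371 in pre-cDC, 2099 and 2296 in CDP, 3990 and 6477 in GMP and 5465 and 7686 in CMP. Most of the pre-cDC and CDP sums was Tfrc, at 2200 and 2295 in pre-cDC and 1948 and 2078 in CDP, against 995 and 1415 in CMP. In pre-cDC against CMP, 1 of the 8 markers was higher and 6 were lower, where 42.2% of all genes were called. Klf1 read 10.2 and 12.1 in pre-cDC, against 186 and 403 in CMP. The part of erythroid cells in the values of Bcl2l1 was not tested.

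Pmaip1 encodes Noxa, a BH3-only protein that binds Mcl1 by preference. It read 44.2 and 42.7 in CMP, 43.9 and 37.4 in GMP, 186 and 168 in CDP and 1493 and 1849 in pre-cDC. CMP and GMP overlapped, CDP stood above both, and pre-cDC stood above CDP. The log2 difference was 3.02 for pre-cDC against CDP (SE 0.12, adjusted p = 1.4e-09), 1.47 for CDP against CMP (adjusted p = 5.6e-06) and 1.52 for CDP against GMP (adjusted p = 1.0e-06). Against GMP and CMP the pre-cDC mean was 41.1 and 38.4 times as high. GMP and CMP did not differ by the test, at -0.06 (adjusted p = 0.83). The gene has 1 probe set, so no other set could be compared with it.

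Bmf, a BH3-only protein held at the cytoskeleton in healthy cells, read 23.6 and 25.8 in CMP, 18.4 and 17.4 in GMP, 27.3 and 29.1 in CDP and 155 and 235 in pre-cDC. The pre-cDC arrays stood far above the 6 others, and they differed from each other more than the arrays of any other group did for this gene. The log2 difference of pre-cDC against CDP was 1.89 (SE 0.14, adjusted p = 2.9e-07). CDP against GMP gave 0.27 (adjusted p = 0.18) and CDP against CMP 0.09 (adjusted p = 0.77). Of the 3 Bmf probe sets, 1 carried the difference, and the other two read between 1.58 and 22.7 on all 8 progenitor arrays and were called in no comparison.

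Bcl2l11 encodes Bim, which binds all protective members. It read 151 and 162 in CMP, 79.2 and 94.6 in GMP, 162 and 172 in CDP and 132 and 140.0 in pre-cDC. GMP lay below the 3 other groups, with log2 differences of -0.67 for GMP against CMP (SE 0.11, adjusted p = 7.9e-04), 0.75 for CDP against GMP (adjusted p = 2.0e-04) and 0.50 for pre-cDC against GMP (adjusted p = 0.0018). Of the 5 Bcl2l11 probe sets, 2 were called in each of the comparisons of GMP with CMP and CDP, and 1 in pre-cDC against GMP. Pre-cDC read below CDP without overlap, but the difference of -0.25 did not pass (adjusted p = 0.11).

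Bbc3 encodes Puma, a target of p53. It read 42.6 and 52.4 in CMP, 35.5 and 24.7 in GMP, 41.7 and 30.7 in CDP and 74.4 and 84.0 in pre-cDC. The pre-cDC arrays were highest, CMP lay just above CDP, and GMP and CDP overlapped. The log2 difference was 0.71 for pre-cDC against CDP (SE 0.12, adjusted p = 4.6e-04), 0.85 for pre-cDC against GMP (adjusted p = 6.1e-05) and 0.49 for pre-cDC against CMP (adjusted p = 0.0051). The last was lost without CMP replicate 1 (adjusted p = 0.059) or pre-cDC replicate 2 (0.051).

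Bid, which links death receptors to mitochondria once caspase-8 has cleaved it, read 688 and 532 in CMP, 908 and 825 in GMP, 988 and 955 in CDP and 520.5 and 440.1 in pre-cDC. CDP and GMP were highest and pre-cDC lowest, and the 2 CMP arrays lay apart. The log2 difference was -0.97 for pre-cDC against CDP (SE 0.12, adjusted p = 3.9e-05), -0.81 for pre-cDC against GMP (adjusted p = 1.0e-04) and 0.66 for CDP against CMP (adjusted p = 0.0030). All 3 Bid probe sets fell in pre-cDC against CDP and against GMP, but 1 of 3 was called in CDP against CMP, where the others gave 0.20 and 0.34. GMP was higher than CMP by 0.49 (adjusted p = 0.014), a call lost without CMP replicate 2 (adjusted p = 0.19) or GMP replicate 1 (0.13). For CDP against GMP the probe sets disagreed: the highest gave 0.16 and was not called, and another was lower by the test, at -0.62.

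Bak1, an effector that forms pores in the mitochondrial membrane, read 146 and 163 in CMP, 210.4 and 209.9 in GMP, 205 and 169 in CDP and 220.0 and 197 in pre-cDC. Its means spanned a narrower range than those of Pmaip1, Bmf, Bcl2 or Mcl1, with CMP lowest. GMP was higher than CMP by 0.38 (SE 0.12, adjusted p = 0.042), and this call was lost when any of the 4 CMP and GMP arrays was left out (adjusted p = 0.086 to 0.21). Pre-cDC was higher than CMP by 0.36 (adjusted p = 0.022), lost without CMP replicate 1 (0.14) or pre-cDC replicate 1 (0.13).

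**Figure D2:**
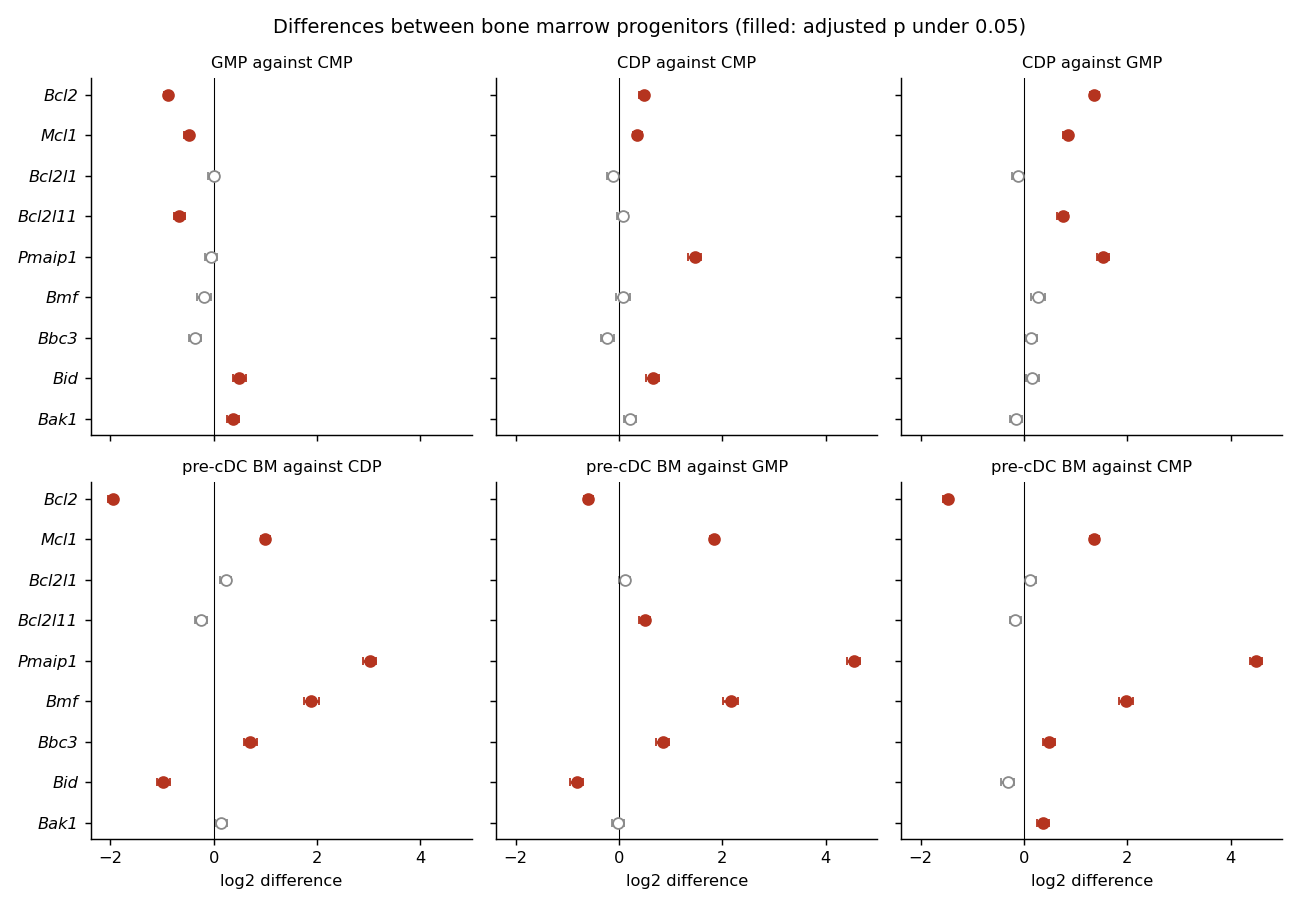
Log2 difference of each of the 9 genes in the 6 comparisons of bone marrow progenitors, with the first-named group over the second; bars are standard errors of the limma fit, and filled points passed an adjusted p of 0.05. In the lower row Pmaip1, Bmf and Mcl1 lie right of 0 and Bcl2 left of it against CDP, GMP and CMP.

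Over the members, pre-cDC against CDP called 6 of 9 (4 higher, 2 lower), where 33.2% of all genes were called. Pre-cDC against GMP called 7 (5 higher, 2 lower), against 44.0% of all genes, and pre-cDC against CMP called 6 (5 higher, 1 lower), against 42.2%. CDP against GMP called 4 higher and 0 lower, against 28.0% of all genes, and CDP against CMP likewise 4 and 0, against 14.4%. GMP against CMP called 5 (2 higher, 3 lower), against 16.8%; this count was 3 without CMP replicate 2 or GMP replicate 1. The members' median log2 difference was 0.24 in pre-cDC against CDP, 0.50 in pre-cDC against GMP and -0.18 in GMP against CMP, where the medians of all genes were -0.01. The comparisons share arrays, and with 9 genes a count moves by whole genes.

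**Figure D3:**
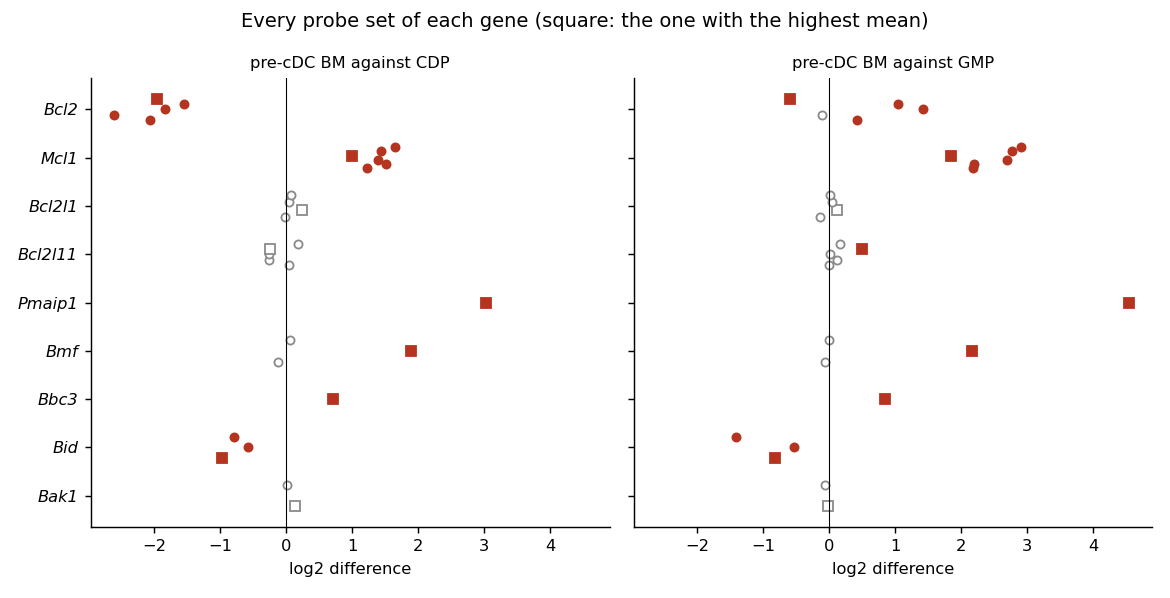
Log2 difference of every probe set of the 9 genes for bone marrow pre-cDC against CDP (left) and against GMP (right); squares mark the probe set with the highest mean and filled symbols passed the test over all probe sets. All 5 Bcl2 sets lie left of 0 against CDP, while against GMP they spread from -0.59 to 1.42.

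Across the 8 progenitor arrays, the log2 values of Pmaip1, Bmf and Mcl1 ran together, with Pearson r of 0.967 for Mcl1 and Pmaip1, 0.96 for Bmf and Pmaip1 and 0.938 for Bmf and Mcl1. These values come from the same arrays, which fall into 4 groups, and describe the group pattern. Outside the family, likeness was read among 2996 genes that varied at least 2-fold, with RIKEN clones, predicted gene models and accession-like names passed over. Closest to Pmaip1 among these were L1cam (r = 0.9988), Irf5 (0.9987) and Marchf1 (0.9987). Irf5 averaged 624 in pre-cDC, 114 in CDP, 42.1 in GMP and 44.2 in CMP. Ust, Gsap and Gpr155 were closest to Bmf (0.9951 to 0.9955), and Stx16, Foxred2 and Ptprc, which encodes CD45, to Mcl1 (0.9969 to 0.9974). Fbxw4, Ttyh2 and Hmces were closest to Bcl2 (0.9897 to 0.9928).

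Sums over markers of several cell types were set beside the pre-cDC values. The classical dendritic cell list, 6 of 6 measured, summed to 15175 and 16233 in pre-cDC, against 3165 and 3425 in CDP. It holds Itgax and Flt3, genes of the pre-cDC gate, and so marks the sorted cells themselves. The plasmacytoid list (6 of 6) summed to 5113 and 5136 in pre-cDC, against 2662 and 2764 in CDP, the monocyte list (4 of 6) to 8696 and 9030 against 4826 and 5028, and the macrophage list (7 of 7) to 1174 and 1384 against 232 and 252. The plasmacytoid genes did not move together: 3 were higher and 2 lower in pre-cDC against CDP, where 33.2% of all genes were called. Most of the macrophage sum in pre-cDC was Cd68, at 1005 and 1217, and of the 7 genes 4 were higher and 0 lower than in CDP. Neutrophil markers (6 of 6) summed to 311 and 346 in pre-cDC, against 309 and 417 in CDP, and B cell markers (5 of 6) to 292 and 311 against 293 and 353. These near-equal sums held genes that moved apart: 1 neutrophil gene was higher and 2 lower, and 1 B cell gene higher and 1 lower, against 33.2% of all genes called. In GMP the neutrophil sum was 2989 and 3531, against 186 and 227 in CMP. No marker was listed at 0. Hba-a1 was at 1.0 on all pre-cDC, CDP and CMP arrays and at 1.0 and 5.42 in GMP, so it does not tell these groups apart. The part of these cells in the members' differences was not tested.

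Other genes of the pathway were read from lists. Of 16 further Bcl2 relatives, 11 were measured; in pre-cDC against CDP 0 rose and 4 fell, a share near the 33.2% called over all genes, with a median log2 difference of -0.19 (all genes -0.01). Among them Bcl2l12 averaged 128 in pre-cDC and 272 in CDP (log2 difference -0.93, adjusted p = 2.9e-05), and Bcl2l13, an outer membrane protein with a part in mitophagy, 57.5 and 101 (-0.57, adjusted p = 0.0046). In CDP against GMP, where 28.0% of all genes were called, 2 rose and 1 fell, with Bad, a BH3-only protein, higher by 0.31 (adjusted p = 0.040).

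Downstream of the mitochondrion, 17 of 19 apoptosome and caspase genes were measured, and in pre-cDC against CDP 5 rose and 6 fell, against 33.2% of all genes called, with a median of -0.01. Apaf1, the scaffold on which cytochrome c activates caspase-9, averaged 828 in pre-cDC and 459 in CDP (0.81, adjusted p = 1.7e-05). Birc3, an inhibitor of apoptosis, averaged 445 and 191 (1.10, adjusted p = 6.6e-05). Endog, a mitochondrial nuclease, averaged 27.8 in pre-cDC and 71.6 in CDP (-0.80, adjusted p = 9.7e-05). In GMP against CMP (16.8% of all genes called) 1 of the 17 rose, Apaf1 (0.78), and 5 fell, Casp6, an executioner caspase, by the largest amount (-0.93). In CDP against GMP (28.0%) 5 rose and 4 fell, with Casp6 at 276 in CDP and 67.7 in GMP (1.63, adjusted p = 1.4e-07).

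The death receptor list had 11 of 12 genes measured, of which 2 rose and 2 fell in pre-cDC against CDP, a share near the 33.2% of all genes, with a median of -0.04. Mlkl, the pore-forming protein of necroptosis, averaged 46.7 in pre-cDC, against 202 in CDP (-1.57, adjusted p = 2.3e-07), while Cflar, an inhibitor of caspase-8, and the TNF receptor gene Tnfrsf1a each rose by 0.61. In CDP against GMP (28.0% of all genes called) 2 rose and 2 fell, among them Casp8 (0.51, adjusted p = 0.0018) and Mlkl (-0.52, adjusted p = 0.0033).

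Of 17 genes of the p53 and Foxo network, which includes transcription factors of Bbc3, Pmaip1 and Bcl2l11 and other targets of those factors, 16 were measured. In GMP against CMP, where 16.8% of all genes were called, 1 rose and 7 fell, with a median of -0.31: Sesn1, a p53 and Foxo target, averaged 235 in GMP and 885 in CMP (-1.77, adjusted p = 6.7e-07), Trp53inp1 50.7 and 214 (-1.57, adjusted p = 2.6e-07) and Foxo3 194 and 357 (-0.79, adjusted p = 6.3e-04). In CDP against GMP 8 rose and 2 fell, where 28.0% of all genes were called, and in pre-cDC against GMP 10 rose and 2 fell, where 44.0% were. Pre-cDC against CDP (33.2%) gave 3 higher and 3 lower, a median of 0.03, and Foxo1 at 273 in pre-cDC and 98.5 in CDP (1.23, adjusted p = 1.3e-06) and Sesn1 lower by the test (-0.98). Of 13 genes for partners and turnover of Mcl1 and the BH3-only proteins, 2 rose and 6 fell in pre-cDC against CDP (33.2% of all genes called), with a median of -0.25, among them Usp9x, a deubiquitinase that stabilises Mcl1 (-0.52, adjusted p = 0.0061).

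The array titled Spl could be described against the 2 bone marrow pre-cDC arrays but not tested. Over all genes its median log2 difference was 0.82, and this shift was subtracted. After it, 3 of 9 members lay at least 2-fold away and beyond both bone marrow arrays, where 14.3% of all genes did. Bcl2l11 read 5336 on the Spl array, against 132 and 140.0 in bone marrow pre-cDC, a difference of 4.18 after the shift. All 5 Bcl2l11 probe sets were at least 2-fold higher there after the shift, by 2.42 to 4.18, the second brightest at 2049 on the Spl array against 52.5 and 49.0. Bid read 183 on the Spl array, against 520.5 and 440.1 (-2.06 after the shift), and Bcl2 read 311, against 577 and 536 (-1.59). The size of both differences depended on the probe set: after the shift, 2 of 3 Bid sets passed 2-fold, with a range of -2.06 to -0.51, and 3 of 5 Bcl2 sets, with a range of -1.59 to -0.67. Before the shift 1 Bid set, at 61.2 against 47.1 and 40.2, and 1 Bcl2 set, at 98.8 against 92 and 81.4, read above both bone marrow arrays. Mapping the quantiles of the Spl array onto the bone marrow arrays in place of the shift also left 3 members past 2-fold, with 4.51 for Bcl2l11. On their highest probe sets, Pmaip1, Mcl1, Bcl2l1 and Bbc3 lay between -0.13 and 0.08 after the shift, Bmf at 0.75 and Bak1 at -0.76. The probe sets of Mcl1 and Bak1 differed in direction. The 6 Mcl1 sets ranged from -0.80 to 0.71 and the 2 Bak1 sets from -0.76 to 0.73, with 0 past 2-fold. With a single array, tissue, sort and scale cannot be told apart.

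**Figure D4:**
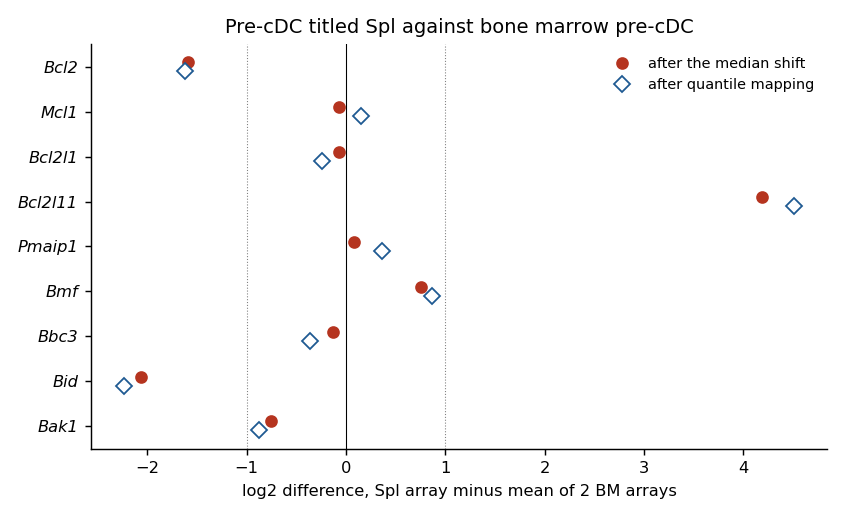
Log2 difference of the Spl array minus the mean of the 2 bone marrow pre-cDC arrays, after subtracting the median of all genes (circles) or after quantile mapping (diamonds); dotted lines mark 2-fold. Bcl2l11 lies at 4.18 and 4.51, and Bid and Bcl2 lie left of the lower line.

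In the bone marrow cultures, with 1 array per condition and no test, CD11c+ non-adherent cells of the GM-CSF culture had more Bmf and Pmaip1 and less Bcl2l1 and Bcl2 than the adherent cells. Bmf read 1510 in the CD11c+ cells, 551 in GM-CSF adherent cells and 145 in M-CSF adherent cells. Pmaip1 read 2837, 1591 and 834 in the same order, and passed 2-fold only against M-CSF adherent cells (1.73). Both fell into the order CD11c+, GM-CSF adherent, M-CSF adherent from high to low, and Bcl2l11 was in that order too, at 1923, 1446 and 1112. Bid was in the opposite order, at 523, 907 and 1653. Only 1 of the 3 Bmf probe sets lay above the array median in the cultures, and the others read between 1.0 and 9.26.

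Bcl2l1 read 392 in CD11c+ cells, against 1324 in GM-CSF adherent and 1461 in M-CSF adherent cells, log2 differences of -1.68 and -1.82. The 3 Bcl2l1 probe sets above the array median were all at least 2-fold lower in the CD11c+ cells against both. Bcl2 read 212 in CD11c+ cells, against 651 and 539 (-1.49 and -1.23). Only 2 of 4 Bcl2 probe sets above the median passed 2-fold against GM-CSF adherent cells and 1 of 4 against M-CSF adherent cells, where the sets ranged from -1.23 to 0.15. Mcl1 was close to level, at 6217 in CD11c+, 6772 in GM-CSF adherent and 5811 in M-CSF adherent cells. Bbc3 read 256 in CD11c+ cells, against 132 and 130.1, under 2-fold on the log2(intensity + 32) scale, and Bak1 read 381, against 437 and 349.

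In CD11c+ against M-CSF adherent cells 5 of 9 members passed 2-fold (2 higher, 3 lower), where 9.61% of all genes did. In CD11c+ against GM-CSF adherent cells 3 passed (1 higher, 2 lower), against 3.73% of all genes. In GM-CSF against M-CSF adherent cells 1 passed, Bmf at 1.72, against 5.49% of all genes. With single arrays these counts carry no measure of replicate error. The neutrophil list summed to 1665 in CD11c+ cells, 23046 in GM-CSF adherent and 10511 in M-CSF adherent cells, and the macrophage list to 25225, 28163 and 37840.3. The classical dendritic cell list summed to 25222, 23806 and 8851 in the same order, and its gene Itgax read 4515, 4904 and 1083. In CD11c+ against GM-CSF adherent cells, 2 of its 6 genes were at least 2-fold higher and 0 lower, against 3.73% of all genes. The neutrophil gene S100a8 read 808 in CD11c+ cells, against 7155 in GM-CSF adherent and 3503 in M-CSF adherent cells, and Camp was at 1.0 in the CD11c+ cells. Their part in the members' values was not tested.

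In CD11c+ against GM-CSF adherent cells, 3.73% of all genes passed 2-fold. Of the pathway lists, the further Bcl2 relatives had 2 of 11 genes past 2-fold there: Bcl2l14 at 294, against 67.6, and Bnip3, a mitochondrial BH3 protein induced by low oxygen, at 2811, against 1323. The apoptosome list had 2 of 17 in the same comparison, Birc2 (1381 in CD11c+ cells, 322 in GM-CSF adherent cells) and Birc3 (3224 and 1422). The death receptor Fas read 845 in CD11c+ cells, 314 in GM-CSF adherent and 71.2 in M-CSF adherent cells. Mlkl read 222 in CD11c+ and 662 in M-CSF adherent cells. In the p53 and Foxo list, 2 of 16 genes were at least 2-fold higher and 1 lower in CD11c+ against M-CSF adherent cells, where 9.61% of all genes passed. Mdm4, an inhibitor of p53, read 588 in CD11c+, 230.0 in GM-CSF adherent and 226 in M-CSF adherent cells, and Perp, a p53 target, 125, 217 and 7.49. Sesn1 read 703 in CD11c+, 987 in GM-CSF adherent and 2885 in M-CSF adherent cells.

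In monocytes given GM-CSF, the highest probe sets of the protective genes Bcl2 and Bcl2l1 were over 2-fold higher at 24 and 48 h than at 0 h, while Pmaip1 and Bmf were lower at 24 h and back near their 0 h values at 48 h. Bcl2 read 1059 at 0 h, 4202 at 24 h and 4107 at 48 h. Bcl2l1 read 1111, 3089 and 2491 at these times. The log2 difference at 24 h against 0 h was 1.96 for Bcl2 and 1.45 for Bcl2l1. Probe sets of both genes differed in size: 2 of 5 Bcl2 sets passed 2-fold, with a range of -0.49 to 2.13, and 1 of 2 Bcl2l1 sets above the median, with a range of 0.54 to 1.45. The direction for Bcl2 in monocytes therefore depended on the probe set. The series has no monocyte array kept without GM-CSF, so GM-CSF, time in culture and a change in cell mix cannot be told apart.

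Pmaip1 read 1957 at 0 h, 696 at 24 h and 1771 at 48 h, so that only the 24 h array was low. Bmf followed the same course, at 2270.4, 1218 and 2845, and passed 2-fold only at 48 h against 24 h (1.20). Only 1 of the 3 Bmf probe sets lay above the array median in monocytes, and the others read between 1.0 and 24.4. Bid read 3183, 1281 and 1852, and both Bid probe sets above the median were at least 2-fold lower at 24 h. Bcl2l11 read 2956, 2082 and 3833, with probe sets from -0.50 to 0.87 at 24 h against 0 h and from 0.37 to 1.40 at 48 h against 0 h. Mcl1 was close to level on its highest probe set, at 13560, 13064 and 12213, but its 6 probe sets differed in direction, from -0.59 to 0.55 at 24 h against 0 h and from -0.42 to 0.99 at 48 h against 0 h. Bbc3 and Bak1 stayed within 2-fold, Bbc3 at 724, 717 and 902 and Bak1 at 1232, 1457 and 1677.

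At 24 h against 0 h, 4 of 9 members passed 2-fold (2 higher, 2 lower), where 13.5% of all genes did. At 48 h against 24 h, 2 passed, Bmf and Pmaip1, both higher, against 3.64% of all genes, and at 48 h against 0 h 2 passed, Bcl2 and Bcl2l1, both higher, against 13.6%. The neutrophil list summed to 18051 at 0 h, 2986.5 at 24 h and 3850 at 48 h. Most of the 0 h sum was S100a8, at 10660, 1086 and 1465 over these times, and S100a9, at 4015, 605 and 895. Ngp read 890, 603 and 967. Against 0 h, 0 of the 6 neutrophil genes were at least 2-fold higher and 4 lower at 24 h, and 0 higher and 3 lower at 48 h. The B cell list summed to 1031, 349 and 250.2, the classical dendritic cell list to 8095, 58260 and 60579 and the macrophage list to 16498, 27603 and 28616. The part of these cells in the members' values was not tested.

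**Figure D5:**
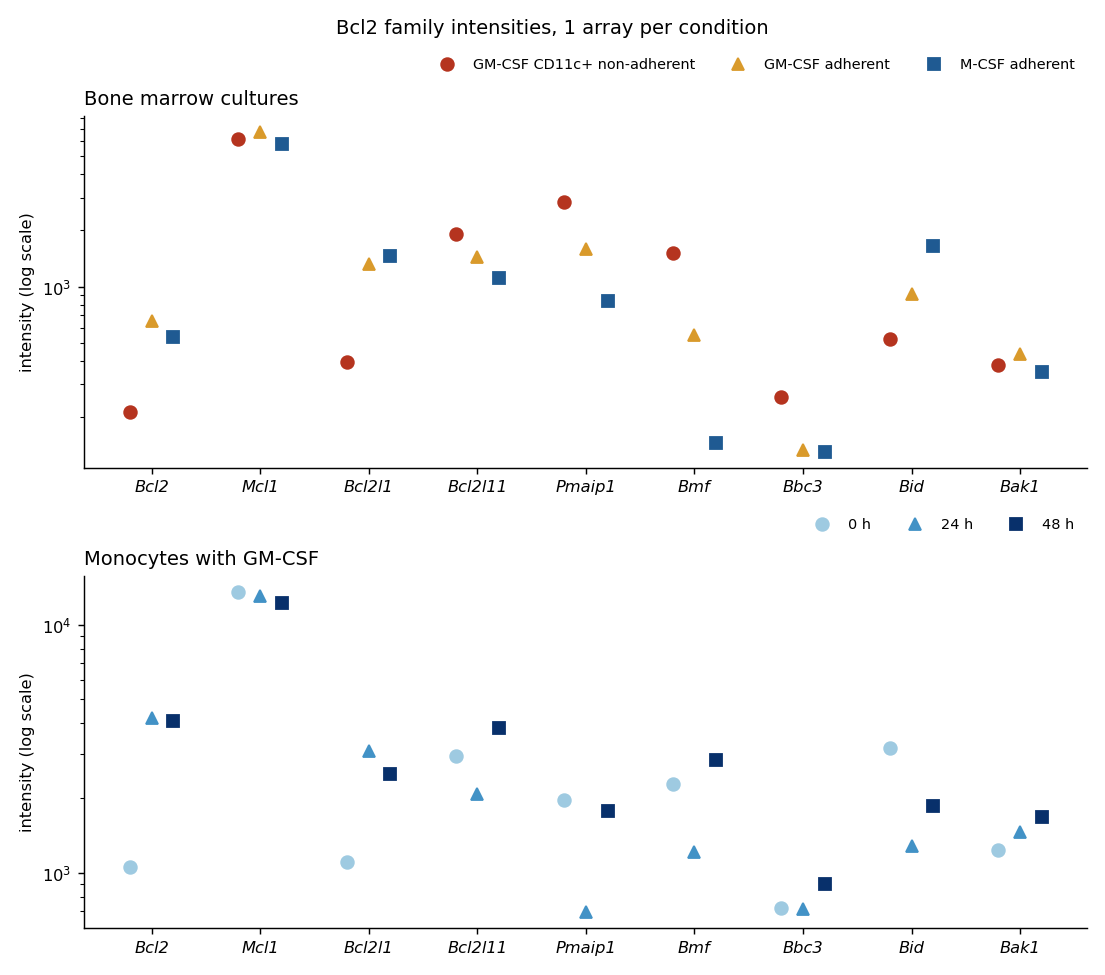
Intensity (log axis) of the 9 genes in the 3 bone marrow cultures (top) and in monocytes after 0, 24 and 48 h with GM-CSF (bottom), 1 array per point. In the cultures Bmf reads 1510, 551 and 145 from CD11c+ cells to M-CSF adherent cells, and in monocytes Pmaip1 and Bmf are lowest at 24 h.

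Other pathway genes in monocytes differed most in the p53 and Foxo list, where 6 of 16 were at least 2-fold higher and 2 lower at 24 h against 0 h, where 13.5% of all genes passed. Sesn2 read 1321 at 24 h, against 238 at 0 h, Zmat3 2154, against 430, and Cdkn1a, the cell cycle inhibitor p21, 12683, against 3418. Of the 17 apoptosome genes, 3 were at least 2-fold higher and 2 lower at 24 h, and 1 higher and 4 lower at 48 h, against 0 h (13.5% and 13.6% of all genes). Casp6 read 5123 at 24 h, against 1764 at 0 h, and Diablo, an antagonist of the inhibitors of apoptosis, 3626, against 1508. At 48 h Apaf1 read 1529, against 3292 at 0 h, and Dffb, a caspase-activated nuclease, 391, against 874. In the death receptor list Mlkl alone passed 2-fold, at 161 at 24 h and 157 at 48 h, against 1482 at 0 h. Among the further Bcl2 relatives Bnip3 alone did, at 1899 at 48 h, against 802 at 0 h.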

How the data were processed

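Expression was read on Affymetrix 3' arrays. The authors deposited a linear intensity for each probe set and array; their background correction, summarisation and scaling are not given in the sources used. The annotation named a single gene for 34945 of 45037 probe sets, several for 932 and no gene for 9160. Each of 18193 genes was represented by its single-gene probe set with the highest mean over 15 arrays, and 0 columns lacked a sample. Log2(intensity + 32) was fitted with limma 3.58.1 (R 4.3.3; lmFit, contrasts.fit, eBayes with trend), taking the 8 progenitor arrays from bone marrow as 4 groups; residual degrees of freedom were 4 before and 12.6 after moderation, and tests were two-sided; code was tested on simulated data. Single arrays were described by values, and a gene counted past 2-fold when its higher value exceeded the median of its array. The number of arrays, 2 or 1 per group, limits precision.

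Members, 5 pathway lists and 11 marker lists were chosen with earlier results of these data known. All members are named, with the 3 largest called differences per list and comparison as the pool for examples, and the 3 genes most correlated with each of the 4 members of widest range (group means spanning at least 2-fold, highest mean above the array median). RIKEN clones, predicted gene models and accession-like names were passed over as correlated genes. Alternatives were pseudocounts of 8 and 64, quantile normalization, a filter on dim genes, no trend, other probe set choices, only the groups compared, the replicate number as a block, and leaving out each array.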

Additional observations from a re-analysis of the deposited data

How the results depend on the processing

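Of 32 called member differences between bone marrow progenitors, 27 kept their call and direction under all 17 alternatives and 5 lost it under at least 1. Those 5 were Bak1 and Bid in GMP against CMP, Mcl1 in CDP against CMP, and Bak1 and Bbc3 in pre-cDC against CMP, and 0 differences reversed. Only the pseudocounts, quantile normalization and omission of an array of a compared group could change a log2 difference. The other alternatives kept the probe set of each member, and so its difference and direction, and could move only the adjusted p. All 32 calls rest on 1 probe set per gene: for Bcl2 in pre-cDC against GMP, 3 of the 5 probe sets were called in the opposite direction. Leaving out 1 array at a time gave 3 to 5 called members for GMP against CMP, 3 to 4 for CDP against CMP, 4 to 5 for CDP against GMP, 6 for pre-cDC against CDP, 7 for pre-cDC against GMP and 4 to 7 for pre-cDC against CMP. Fitted over all probe sets, Bak1 in GMP against CMP had an adjusted p of 0.056. With the number in the titles, WT1 or WT2, as a replicate block, the counts were 5, 4, 4, 6, 7 and 7 in the same order. The only moved call was Bid in pre-cDC against CMP (-0.32, adjusted p = 0.016 with the block and 0.055 without). Same-numbered arrays deviated together at correlations of -0.02 to 0.18 over the 6 pairs of groups, 2 of them above 0.1, so the numbers were not taken as pairs. Bid in that comparison also passed after quantile normalization (adjusted p = 0.036), the filter on dim genes (0.033) and 2 omissions, and Bbc3 in GMP against CMP passed with the filter (0.031), and Bmf in CDP against GMP with only those groups fitted or without either pre-cDC array (0.040 to 0.045). The cause of these changes was not tested. With 2 arrays a group, and with 1 in cultures and monocytes, small differences of dim genes such as Bbc3 and Bcl2l1 cannot be resolved.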
